A study of Mus musculus with 8 samples.

Results

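The epidermal response to the topical glucocorticoid fluocinolone acetonide (FA) was measured as the effect that REDD1 KO and wild-type mice shared. All 8 arrays of the series entered the comparison, 4 from FA-treated epidermis and 4 from vehicle-treated epidermis, and genotype was a term of the model. Of 25697 probes on the array, 13131 had a detection p-value under 0.05 on at least 2 arrays and were tested. They represented 9343 named genes. A probe was called where its adjusted p was under 0.05, and a called probe was counted as shared where, in each genotype on its own, both FA arrays were above, or both were below, its 2 vehicle arrays.

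The groups were REDD1 KO FA, wild-type FA, REDD1 KO vehicle and wild-type vehicle, with 2 arrays each. REDD1 KO mice lack exon 2 of Ddit4, the gene that encodes REDD1, which a LacZ/neo cassette replaces in all their cells. Females of 7 weeks in the resting phase of the hair cycle had their backs shaved and were given 2 µg of FA per animal in 200 µl of acetone, or acetone alone, and per the study's text epidermis was taken 24 h later. The text describes 1 animal per array, B6x129 mice and skin of the back. The sample labels instead name the strain B6D2 and the ear lobe, and call the controls untreated. The protocol in the labels allows single or repeated applications and includes a bromodeoxyuridine injection shortly before harvest. The labels do not say that replicates were separate animals, so the p-values measure the spread between these samples, which may be partly technical, and 8 arrays limit the precision of every value.

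Glucocorticoids bind the glucocorticoid receptor, a transcription factor that waits in the cytoplasm with heat shock chaperones and moves to the nucleus once bound. There it switches on genes through DNA elements of its own and holds back transcription driven by NF-κB, AP-1 and interferon signals. In skin, the drugs are used against inflammation, and thinning of the epidermis is their best known adverse effect.

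Signals were close to background on much of the array, with a median intensity of 95.9 to 106.9 against a negative control mean of 90.5 to 99.3, and 44.5% to 46.7% of probes were detected. Replicates correlated at r = 0.976 to 0.990 over probes. Ddit4 had normalized log2 signals of 7.88 and 8.35 in REDD1 KO FA and 10.98 and 11.14 in wild-type FA arrays, against 7.42 and 7.09 in REDD1 KO vehicle and 10.08 and 9.16 in wild-type vehicle arrays. Every REDD1 KO array lay below every wild-type array, though the files do not say whether the probe lies within the replaced exon. Keratinocyte markers were among the brightest genes: Krt5, the keratin of the basal layer, was at 11.04 and 10.04 in REDD1 KO FA and 11.24 and 10.999 in wild-type FA arrays, against 11.11 and 10.83 in REDD1 KO vehicle and 11.21 and 11.41 in wild-type vehicle arrays. Markers of skeletal muscle, which lies under the skin, set 1 array apart. The summed linear signal of 12 muscle genes was 29856 on REDD1 KO FA replicate 1, and 390 to 3208 on the other FA arrays, against 484 to 2131 on the vehicle arrays. Without that array 589 probes were higher and 660 lower with FA.

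FA changed the signal of 1566 probes. Of these, 719 probes (5.48% of those tested) were higher and 847 (6.45%) were lower with FA (limma, Benjamini-Hochberg adjusted p under 0.05), and they named 590 genes that rose and 717 that fell. At an unadjusted p under 0.05, 1620 probes were higher and 1837 lower. The median log2 fold change was 0.72 among the rises and -0.68 among the falls, and 186 rises and 197 falls were at least 1 on the log2 scale. Leaving out wild-type FA replicate 1 brought the counts to 374 higher and 426 lower, and leaving out wild-type FA replicate 2 to 470 and 537. With each array centred on its median in place of quantile normalization, 402 probes were higher and 1127 lower, so that 26.3% of the calls were rises in place of 45.9%. That scaling moved the median change of all tested probes to -0.097. At the edge of the threshold, A3galt2 (at least 1.41-fold higher and not above background with vehicle, adjusted p = 0.04997) and Il4i1 (log2 fold change -0.62, adjusted p = 0.04992) were just inside, and H13 (0.41) and Sdhaf4 (-0.42), both at an adjusted p of 0.05003, were just outside.

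The steepest rise was that of Spsb1, whose protein hands target proteins to a ubiquitin ligase. Its normalized log2 signals were 9.07 and 9.24 in REDD1 KO FA and 8.38 and 8.63 in wild-type FA arrays, against 5.76 and 5.51 in REDD1 KO vehicle and 5.49 and 5.54 in wild-type vehicle arrays. All 4 FA arrays were far above all 4 vehicle arrays in both genotypes, and the replicates lay close together (log2 fold change 3.26, SE 0.144, adjusted p = 6.08e-06, limma). The group means were 8.83 ± 0.39 with FA and 5.57 ± 0.13 with vehicle (SD, n = 4 each). Tmprss2, a serine protease anchored in the plasma membrane, had signals of 7.89 and 8.81 in REDD1 KO FA and 7.32 and 8.01 in wild-type FA arrays, against 4.83 and 5.38 in REDD1 KO vehicle and 4.80 and 4.52 in wild-type vehicle arrays. The vehicle signals were low (log2 fold change 3.12, SE 0.23, adjusted p = 7.99e-05). Non-overlap within each genotype is part of the rule for shared probes. It is therefore no separate result for the genes, here and below, that were chosen as shared.

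Other genes among the 12 largest shared rises have known roles in glucocorticoid action, metabolism and stress. Gadd45g, a growth arrest and stress response gene, had signals of 10.48 and 11.04 in REDD1 KO FA and 10.08 and 10.55 in wild-type FA arrays, against 7.35 and 7.90 in REDD1 KO vehicle and 8.98 and 7.45 in wild-type vehicle arrays. The vehicle arrays varied more than the FA arrays, yet none reached them (log2 fold change 2.62, SE 0.338, adjusted p = 0.00116). Cyp2b10, a cytochrome P450 that oxidizes drugs and steroids, was at 11.19 and 11.60 in REDD1 KO FA and 10.89 and 11.25 in wild-type FA arrays, against 9.04 and 9.33 in REDD1 KO vehicle and 8.82 and 8.28 in wild-type vehicle arrays (log2 fold change 2.37, SE 0.17, adjusted p = 7.99e-05). It was abundant in all groups. Hs3st3a1, which adds sulfate groups to heparan sulfate, was at 7.32 and 6.97 in REDD1 KO FA and 7.23 and 7.04 in wild-type FA arrays, against 4.52 and 4.73 in REDD1 KO vehicle and 5.11 and 4.51 in wild-type vehicle arrays. The FA arrays lay within a narrow band well above the vehicle arrays (log2 fold change 2.43, SE 0.158, adjusted p = 4.62e-05). Serpina3n, a secreted inhibitor of serine proteases, was at 10.91 and 10.91 in REDD1 KO FA and 8.56 and 8.49 in wild-type FA arrays, against 7.96 and 8.22 in REDD1 KO vehicle and 6.99 and 5.53 in wild-type vehicle arrays. Here REDD1 KO arrays were above wild-type arrays under either treatment, and FA raised both (log2 fold change 2.54, SE 0.269, adjusted p = 0.000382). Scgb2b27, a member of the secretoglobin family of small secreted proteins, had a log2 fold change of 2.31.

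**Figure D1:**
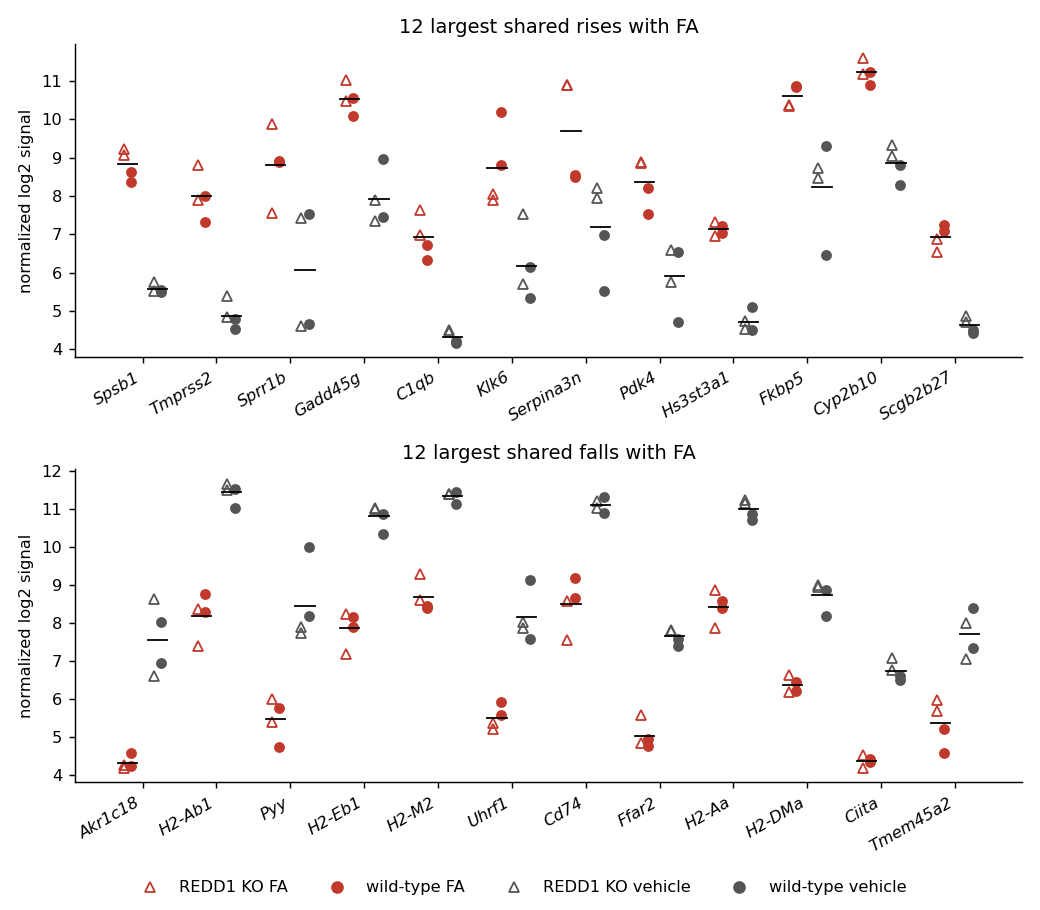
Normalized log2 signal of the 12 largest shared rises (top) and falls (bottom) on each of 8 arrays, with open triangles for REDD1 KO, filled circles for wild type, red for FA, grey for vehicle and a bar at the mean of 4 arrays. Spsb1 lay between 8.38 and 9.24 with FA and between 5.49 and 5.76 with vehicle, whereas the vehicle arrays of Sprr1b spread from 4.60 to 7.54.

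Genes of the glucocorticoid receptor list, made of the receptor, its chaperones and well-known direct targets, rose together. Of 29 measured, 15 rose and 1 fell, with a median log2 fold change of 0.66. Over all 9343 genes, with 1 probe each, 540 (5.78%) rose and 687 (7.35%) fell, with a median of -0.01. The counts of every list below stand against these shares. Without wild-type FA replicate 1 the receptor list had 10 rises. Several of these genes are textbook targets that were put on the list for that reason. Pdk4, which turns mitochondria from glucose to fatty acid oxidation, was at 8.87 and 8.89 in REDD1 KO FA and 7.54 and 8.20 in wild-type FA arrays, against 5.76 and 6.58 in REDD1 KO vehicle and 6.53 and 4.71 in wild-type vehicle arrays. Wild-type vehicle replicate 2 was the lowest array by far, and all FA arrays were above all vehicle arrays (log2 fold change 2.48, SE 0.351, adjusted p = 0.0019). Fkbp5, a co-chaperone that lowers the receptor's affinity for hormone, was at 10.34 and 10.39 in REDD1 KO FA and 10.86 and 10.88 in wild-type FA arrays, against 8.73 and 8.47 in REDD1 KO vehicle and 9.31 and 6.45 in wild-type vehicle arrays. The FA arrays agreed closely, while the vehicle arrays ranged over several log2 units (log2 fold change 2.38, SE 0.498, adjusted p = 0.0132), and the call was lost in 1 of 8 fits that each left out an array. The related co-chaperone Fkbp4 was the 1 member that fell (-0.72).

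The remaining targets rose by less. Glul, glutamine synthetase, had a log2 fold change of 1.40. The metallothioneins Mt1 and Mt2, which bind zinc, rose by 1.18 and 1.26. Klf9, a transcription factor, rose by 0.92, Sgk1, a kinase that controls ion channels, by 0.78, and Sult1a1, a sulfotransferase, by 1.27. Tsc22d3, which encodes the anti-inflammatory protein GILZ, had a log2 fold change of 0.66 and was not called, nor was Per1 (0.37) or Dusp1 (0.33). Nfkbia, the inhibitor that keeps NF-κB in the cytoplasm, was at 9.75 and 9.56 in REDD1 KO FA and 10.22 and 10.05 in wild-type FA arrays, against 9.07 and 9.08 in REDD1 KO vehicle and 9.55 and 9.03 in wild-type vehicle arrays. Wild-type vehicle replicate 1 nearly reached the lowest FA array, and the groups remained separate within each genotype (log2 fold change 0.72, SE 0.142, adjusted p = 0.0104). Zfp36, which speeds the decay of cytokine mRNAs, rose by 0.56. The receptor gene itself, Nr3c1, was not above background on any FA array and showed no called change, at a mean of 4.49 ± 0.07 with FA and 4.78 ± 0.37 with vehicle (SD, n = 4 each).

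Angptl4, an inhibitor of lipoprotein lipase, belongs to the same list and had signals of 9.51 and 10.35 in REDD1 KO FA and 9.89 and 10.47 in wild-type FA arrays, against 8.38 and 9.26 in REDD1 KO vehicle and 8.43 and 5.99 in wild-type vehicle arrays. The FA arrays were all above the vehicle arrays, but the gap was small in REDD1 KO and wild-type vehicle replicate 2 stood far below the rest (log2 fold change 2.04, SE 0.533, adjusted p = 0.0344), and the call was lost in 4 of 8 fits with an array left out. Ddit4 was higher on both FA arrays than on both vehicle arrays of each genotype (log2 fold change 1.15, SE 0.219, adjusted p = 0.0086). Its levels were lower in REDD1 KO under either treatment. The change of 0.86 within REDD1 KO was not called (limma, adjusted p = 0.146), while that of 1.44 in wild type was (adjusted p = 0.0236). A signal of this probe in REDD1 KO does not show an intact transcript. The call over both genotypes was lost in the fit with no genotype term (adjusted p = 0.485).

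The 3 chains of complement C1q, the molecule that starts the classical complement pathway, rose together. C1qb was at 6.99 and 7.63 in REDD1 KO FA and 6.33 and 6.72 in wild-type FA arrays, against 4.50 and 4.45 in REDD1 KO vehicle and 4.21 and 4.17 in wild-type vehicle arrays. None of the vehicle arrays was above background and all FA arrays were, so the change is given as at least 4.9-fold higher with FA (log2 fold change 2.59, SE 0.173, adjusted p = 5.4e-05). Such a bound sets the FA mean against, on each vehicle array, the higher of 2 signals, that of the probe and the lowest of any detected probe. C1qa was at 6.69 and 6.90 in REDD1 KO FA and 7.15 and 6.86 in wild-type FA arrays, against 5.40 and 5.12 in REDD1 KO vehicle and 4.68 and 4.49 in wild-type vehicle arrays, with no overlap between FA and vehicle arrays (log2 fold change 1.97, SE 0.187, adjusted p = 0.00023). C1qc, likewise below background on every vehicle array, averaged 5.83 ± 0.35 with FA and 4.32 ± 0.08 with vehicle (SD, n = 4 each), at least 2.3-fold higher with FA (adjusted p = 0.00033). Of 9 complement genes measured, 4 rose (1 where detection on all 8 arrays was required) and C2, a protease of the same pathway, fell by 1.18 on the log2 scale. The fourth that rose was Cd59a (0.82), which protects cells from the terminal complement complex. C1q is known to be made mainly by macrophages and dendritic cells. The 13 measured markers of Langerhans cells and macrophages had a median of -0.31, with none called higher, and Adgre1, a macrophage surface protein also found on Langerhans cells, fell (log2 fold change -1.35, SE 0.174, adjusted p = 0.00116).

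Genes that restrain proliferation and growth factor signals were among the rises. Of 17 growth arrest genes measured, 5 rose and 1 (Rb1, -0.50) fell, against 5.78% and 7.35% of all genes, with a median of 0.34. Cdkn1c, which encodes the cyclin-dependent kinase inhibitor p57, had signals of 6.84 and 6.18 in REDD1 KO FA and 6.27 and 6.92 in wild-type FA arrays, against 5.10 and 4.99 in REDD1 KO vehicle and 4.97 and 4.99 in wild-type vehicle arrays. The vehicle arrays lay within a narrow range and every FA array was more than 1 log2 unit above them (log2 fold change 1.54, SE 0.179, adjusted p = 0.000717). Trp53inp1, a p53 target, was at 10.83 and 11.21 in REDD1 KO FA and 10.88 and 10.87 in wild-type FA arrays, against 9.75 and 9.86 in REDD1 KO vehicle and 10.16 and 8.92 in wild-type vehicle arrays (log2 fold change 1.27, SE 0.229, adjusted p = 0.00675). The other members that rose were Gadd45b (0.82), also of the Gadd45 family, and Txnip (0.94), which binds thioredoxin. Errfi1, a feedback inhibitor of the EGF receptor, rose (log2 fold change 0.78, SE 0.161, adjusted p = 0.0125), and Egfr itself was lower (log2 fold change -0.43, SE 0.12, adjusted p = 0.0447), a small change that was lost in 7 of 8 fits with an array left out and was not seen with 2 dimmer probes of the gene.

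Within PI3K and mTOR signalling, which couples insulin and nutrients to growth, 6 of 24 measured genes rose and Pik3r3, a regulatory subunit of PI3 kinase, fell (-0.69). Over all genes 5.78% rose and 7.35% fell. Irs2, an adaptor of the insulin receptor, was at 9.72 and 9.90 in REDD1 KO FA and 9.50 and 9.39 in wild-type FA arrays, against 7.47 and 7.85 in REDD1 KO vehicle and 7.95 and 6.95 in wild-type vehicle arrays. The FA arrays lay within a narrow range above all vehicle arrays (log2 fold change 2.07, SE 0.2, adjusted p = 0.000245). Besides Irs2 and Ddit4, an inhibitor of mTORC1 by way of its gene product REDD1, the members that rose were Igf1r (0.75), the receptor of insulin-like growth factor 1, Eif4ebp1 (0.65) and Eif4ebp2 (0.54), repressors of translation that mTOR phosphorylates, and Foxo1 (0.56), a transcription factor held out of the nucleus by Akt. Without wild-type FA replicate 1, or with median centring, 3 genes of the list rose. Of 26 autophagy genes, 6 rose and 2 fell (0 to 2 with an array left out), with a median of 0.06. The falls were near the share over all genes. Gabarapl1, an ATG8 protein of the autophagosome membrane, was at 8.62 and 8.57 in REDD1 KO FA and 9.09 and 9.35 in wild-type FA arrays, against 7.38 and 7.50 in REDD1 KO vehicle and 7.57 and 7.23 in wild-type vehicle arrays, and no FA array overlapped the vehicle arrays (log2 fold change 1.49, SE 0.162, adjusted p = 0.00046). Map1lc3b, the gene of LC3B, rose by 0.69 and the cargo receptor Sqstm1 by 0.61, whereas Atg5 (-0.51) and Lamp2 (-0.45) fell. The number of autophagy rises was not steady: 2 to 4 were called with an array left out and 1, that of Gabarapl1, with median centring.

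Genes of keratinocyte terminal differentiation, which build the cornified envelope and the lipid barrier, had a median log2 fold change of 0.46, with 9 of 47 measured genes higher, 1 lower and 39 with a positive value. The median was 0.15 in REDD1 KO and 0.60 in wild type, and the difference between genotypes was not tested for the list. Ivl, involucrin, the scaffold of the cornified envelope, rose. Its signals were 10.997 and 10.91 in REDD1 KO FA and 11.31 and 11.49 in wild-type FA arrays, against 10.19 and 10.17 in REDD1 KO vehicle and 10.24 and 10.19 in wild-type vehicle arrays. The vehicle arrays were nearly identical and all FA arrays stood above them (log2 fold change 0.98, SE 0.124, adjusted p = 0.00105). Alox12b (0.99) and Aloxe3 (1.15), lipoxygenases that process barrier lipids, rose as well, as did Casp14 (0.66) and Asprv1 (0.49), proteases that act on filaggrin.

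The steepest of these rises was also the least even. Sprr1b, a small proline-rich envelope protein, was at 9.88 and 7.56 in REDD1 KO FA and 8.89 and 8.92 in wild-type FA arrays, against 4.60 and 7.43 in REDD1 KO vehicle and 4.67 and 7.54 in wild-type vehicle arrays. In each genotype 1 vehicle array was near background and the other almost as high as the lowest FA array, so the call (log2 fold change 2.76, SE 0.734, adjusted p = 0.0369) was lost in 5 of 8 fits with an array left out. The late envelope genes Lce3b and Lce3c had log2 fold changes of 1.70 and 1.59 and lost the call in 7 and 5 of those fits. Sprr2a1 was lower (-0.54). The number of rises in this list was 3 without wild-type FA replicate 1, up to 12 with other arrays left out, and 4 with median centring. Krt1 and Krt10, keratins of the layers above the basal one, had log2 fold changes of -0.60 and 0.01 and were not called.

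**Figure D2:**
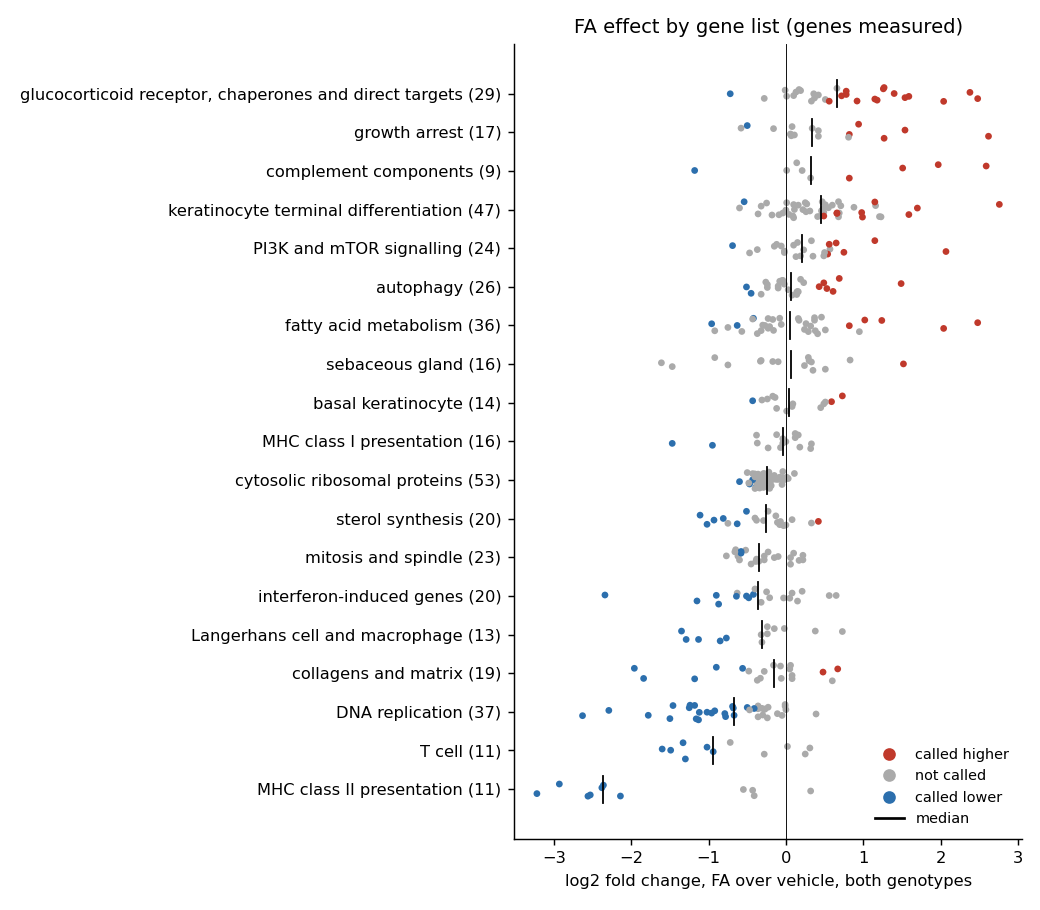
Log2 fold change of FA over vehicle across both genotypes for each measured gene (points, 1 probe each) of 19 gene lists, with a black line at the median of each list and colours for called rises, called falls and genes not called. The list medians ran from -2.36 for MHC class II presentation to 0.66 for the glucocorticoid receptor list.

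Many genes fell together in MHC class II presentation, by which cells show peptides taken up from outside to CD4+ T cells. Of 11 measured genes 7 fell, none rose, and the median log2 fold change was -2.36 (-2.56 in REDD1 KO and -2.15 in wild type). The summed linear signal of the list was 1366 to 2361 on the FA arrays, against 8533 to 11978 on the vehicle arrays. H2-Ab1, the beta chain of the I-A molecule, had signals of 7.41 and 8.37 in REDD1 KO FA and 8.28 and 8.76 in wild-type FA arrays, against 11.50 and 11.66 in REDD1 KO vehicle and 11.53 and 11.02 in wild-type vehicle arrays. All FA arrays were well below all vehicle arrays, with REDD1 KO FA replicate 1 the lowest (log2 fold change -3.22, SE 0.258, adjusted p = 0.000111). Its partner H2-Aa was at 7.88 and 8.86 in REDD1 KO FA and 8.39 and 8.59 in wild-type FA arrays, against 11.15 and 11.22 in REDD1 KO vehicle and 10.71 and 10.87 in wild-type vehicle arrays (log2 fold change -2.56, SE 0.204, adjusted p = 0.000111). The beta chain of I-E, H2-Eb1, was at 7.18 and 8.24 in REDD1 KO FA and 7.90 and 8.16 in wild-type FA arrays, against 10.99 and 11.01 in REDD1 KO vehicle and 10.87 and 10.34 in wild-type vehicle arrays (log2 fold change -2.93, SE 0.242, adjusted p = 0.000131). For each of these chains REDD1 KO FA replicate 1 was the lowest array and no FA array overlapped the vehicle arrays.

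The genes that load and control class II fell with the chains. Cd74, the invariant chain that guards the peptide groove, was at 7.56 and 8.58 in REDD1 KO FA and 8.67 and 9.18 in wild-type FA arrays, against 11.02 and 11.21 in REDD1 KO vehicle and 11.32 and 10.90 in wild-type vehicle arrays (log2 fold change -2.62, SE 0.255, adjusted p = 0.000258), and a second probe fell by 2.53 on the log2 scale. H2-DMa, a subunit of the peptide exchange factor, was at 6.19 and 6.65 in REDD1 KO FA and 6.22 and 6.45 in wild-type FA arrays, against 9.01 and 8.96 in REDD1 KO vehicle and 8.86 and 8.19 in wild-type vehicle arrays (log2 fold change -2.38, SE 0.175, adjusted p = 7.99e-05), and its partner H2-DMb1 had a log2 fold change of -2.14. Ciita, the coactivator on which class II transcription depends, was at 4.19 and 4.54 in REDD1 KO FA and 4.44 and 4.36 in wild-type FA arrays, against 6.77 and 7.08 in REDD1 KO vehicle and 6.60 and 6.50 in wild-type vehicle arrays. It was above background in vehicle epidermis and on none of the FA arrays, at least 4.22-fold lower with FA (log2 fold change -2.36, SE 0.141, adjusted p = 3.17e-05). The members not called were H2-Oa and H2-Ob, the protease gene Ctss (-0.41) and Ifi30 (0.32), a thiol reductase of the endosome.

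Promoter stretches of 3 genes that fell in this list are shown because class II promoters are known for a conserved module that ends in an inverted CCAAT box, the site of the factor NF-Y. The sequences are from RefSeq (GRCm38.p6) and read 5′ to 3′ on the strand of the gene. They are H2-Eb1 at chr17:34305757-34305836 (plus strand), H2-Aa at chr17:34287854-34287933 (minus strand) and H2-DMb1 at chr17:34153081-34153160 (plus strand). Capitals mark CCAAT or its reverse complement ATTGG.
H2-Eb1: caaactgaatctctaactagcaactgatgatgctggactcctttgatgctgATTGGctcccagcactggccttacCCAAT
H2-Aa: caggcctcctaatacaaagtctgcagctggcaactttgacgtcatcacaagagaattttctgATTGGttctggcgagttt
H2-DMb1: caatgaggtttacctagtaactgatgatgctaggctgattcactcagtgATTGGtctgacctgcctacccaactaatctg
Counted from the annotated transcription start, ATTGG began at position -59 in H2-Eb1, -48 in H2-Aa and -61 in H2-DMb1. CCAAT on either strand was held by 5 of 7 measured class II genes with 1 promoter entry, against 41.9% of 408 genes that fell, 34.3% of 350 that rose and 39% of 6030 tested genes, in windows of 250 bases before and 50 after the start. Besides the 3 genes shown, the class II genes that held it were H2-Oa and H2-Ob, which were not called. CCAAT was held by 16 of 26 (61.5%) measured DNA replication and 13 of 19 (68.4%) measured mitosis genes. These shares describe letters only and do not show that a factor binds there.

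MHC class I presentation, which most cells use to show their own peptides to CD8+ T cells, had 2 of 16 measured genes lower and none higher. Over all genes 7.35% were lower. The median of the list was -0.04. Both that fell are subunits of the immunoproteasome, an interferon-induced form of the proteasome. Psmb10 was at 6.81 and 7.13 in REDD1 KO FA and 6.83 and 6.73 in wild-type FA arrays, against 8.27 and 8.31 in REDD1 KO vehicle and 8.35 and 8.44 in wild-type vehicle arrays, with no overlap between the groups (log2 fold change -1.47, SE 0.123, adjusted p = 0.000134), and Psmb9 had a log2 fold change of -0.95. The third subunit, Psmb8, had -0.37 and was not called. H2-K1, a classical class I heavy chain, had a log2 fold change of -0.04, B2m, the light chain, 0.12, and Tap1, the peptide transporter, -0.07, none of them called. The non-classical class I gene H2-M2 differed from these, at 8.60 and 9.30 in REDD1 KO FA and 8.39 and 8.44 in wild-type FA arrays, against 11.40 and 11.38 in REDD1 KO vehicle and 11.44 and 11.14 in wild-type vehicle arrays. Its FA arrays were all far below its vehicle arrays (log2 fold change -2.66, SE 0.17, adjusted p = 4.62e-05).

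Interferon-induced genes fell in part. Of 20 measured, 8 fell and none rose, with a median of -0.36, and 4 to 6 fell with an array left out. Irf1, a transcription factor induced by interferon gamma, was at 6.49 and 6.87 in REDD1 KO FA and 6.92 and 6.99 in wild-type FA arrays, against 8.92 and 9.50 in REDD1 KO vehicle and 8.75 and 9.45 in wild-type vehicle arrays. The FA and vehicle arrays were more than 1 log2 unit apart (log2 fold change -2.34, SE 0.195, adjusted p = 0.000131). A second, dimmer probe fell by 1.88 on the log2 scale, while a further pair of probes near background was not called. Gbp2, an interferon-induced GTPase, fell by 1.15 on the log2 scale. Oasl2 was above background on some vehicle arrays only and averaged 4.30 ± 0.03 with FA and 5.20 ± 0.77 with vehicle (SD, n = 4 each), at least 1.45-fold lower with FA. The call of Oasl2 (adjusted p = 0.0378) was lost in 5 of 8 fits with an array left out and rested mainly on REDD1 KO. Its vehicle arrays were at 5.72 and 5.97 in REDD1 KO and 4.75 and 4.36 in wild type. The change was -1.55 in REDD1 KO and -0.24 in wild type, and the latter was not called. Bst2, Isg20 and Irf7, also interferon-induced, had log2 fold changes of 0.65, 0.56 and 0.15 and were not called.

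Markers of the immune cells of the epidermis moved with these genes. Of 11 measured T cell genes 6 fell (4 to 7 with an array left out), with a median of -0.94, and their summed signal was 508 to 1034 on the FA arrays, against 1358 to 2347 on the vehicle arrays. Cd3g, a subunit of the T cell receptor complex, was at 5.44 and 6.37 in REDD1 KO FA and 6.65 and 6.67 in wild-type FA arrays, against 7.54 and 7.64 in REDD1 KO vehicle and 8.71 and 7.65 in wild-type vehicle arrays. Every FA array was below every vehicle array (log2 fold change -1.60, SE 0.244, adjusted p = 0.00282). Cd3d, Cd3e and Thy1, a surface protein of the dendritic epidermal T cells of mouse skin, fell, with log2 fold changes of -1.49, -0.94 and -1.33. Of 13 measured markers of Langerhans cells and macrophages 5 fell, with a summed signal of 2012 to 3032 on the FA arrays and 2556 to 3527 on the vehicle arrays, ranges that overlapped. Cd207, langerin, the defining marker of Langerhans cells, was at 7.23 and 8.08 in REDD1 KO FA and 7.97 and 8.01 in wild-type FA arrays, against 9.26 and 9.10 in REDD1 KO vehicle and 9.44 and 8.66 in wild-type vehicle arrays, with REDD1 KO FA replicate 1 the lowest and no overlap (log2 fold change -1.29, SE 0.22, adjusted p = 0.00501). Ptprc, the pan-leukocyte marker CD45, had a log2 fold change of -0.02 and was not called. In tissue RNA, fewer cells of a type and less RNA per cell cannot be told apart, and the part of these cells in the class II result was not tested.

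**Figure D3:**
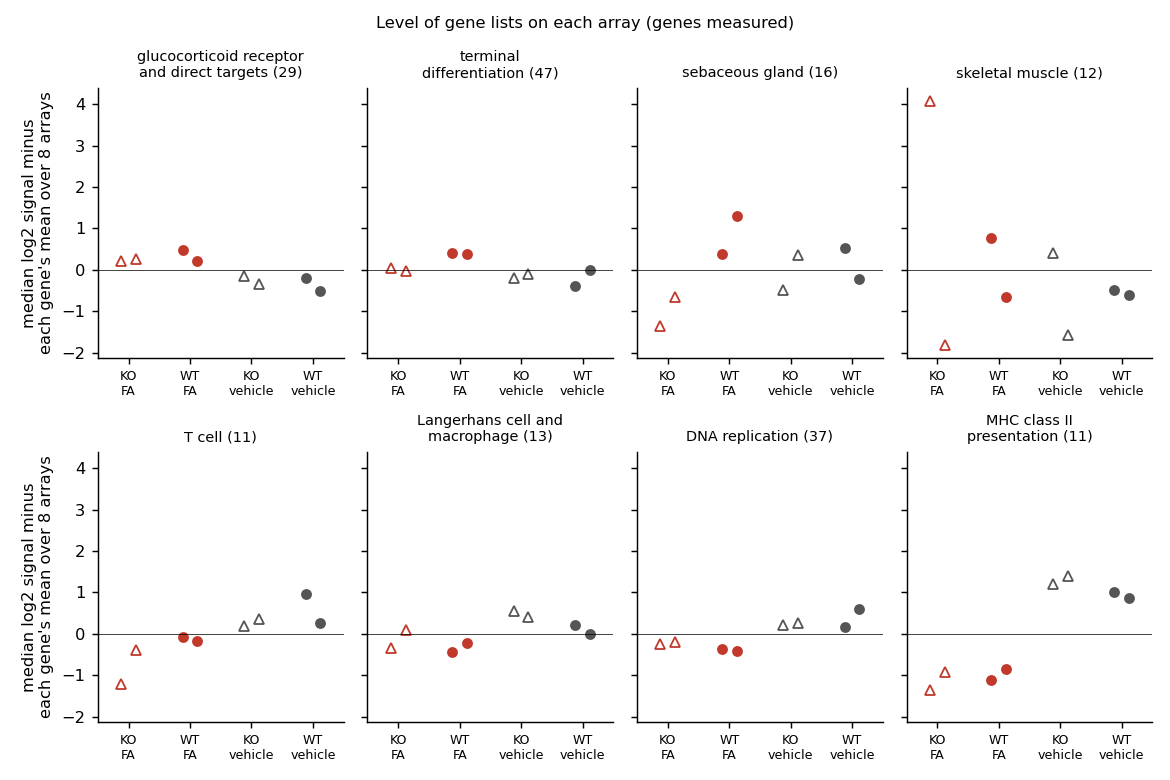
Level of 8 gene lists on each array, as the median over the measured genes of the log2 signal minus each gene's mean over 8 arrays, with open triangles for REDD1 KO, filled circles for wild type, red for FA and grey for vehicle. The class II and DNA replication lists were lower on each FA array than on any vehicle array, while the skeletal muscle list was high on a single REDD1 KO FA array.

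DNA replication genes fell as well. Of 37 measured, 21 fell and none rose, 36 had a negative value and the median was -0.67 (-0.52 in REDD1 KO and -0.77 in wild type). With an array left out 13 to 20 fell, the fewest without wild-type FA replicate 1. The summed signal was 3523 to 4531 on the FA arrays and 5822 to 8582 on the vehicle arrays. Uhrf1, which brings the maintenance DNA methyltransferase to newly copied DNA, was at 5.37 and 5.23 in REDD1 KO FA and 5.58 and 5.92 in wild-type FA arrays, against 7.88 and 8.02 in REDD1 KO vehicle and 7.58 and 9.12 in wild-type vehicle arrays. The FA arrays lay close together, and wild-type vehicle replicate 2 was the highest array (log2 fold change -2.63, SE 0.268, adjusted p = 0.00033). Mcm5, a subunit of the replicative helicase, was at 5.47 and 5.56 in REDD1 KO FA and 5.53 and 5.70 in wild-type FA arrays, against 7.60 and 7.73 in REDD1 KO vehicle and 7.44 and 8.64 in wild-type vehicle arrays (log2 fold change -2.29, SE 0.221, adjusted p = 0.000245). Mcm2 of the same ring was at 4.72 and 4.67 in REDD1 KO FA and 4.89 and 4.94 in wild-type FA arrays, against 6.50 and 6.36 in REDD1 KO vehicle and 6.09 and 7.39 in wild-type vehicle arrays (log2 fold change -1.78, SE 0.229, adjusted p = 0.00115). In all of these genes the vehicle arrays were above the FA arrays in both genotypes.

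The fall ran through the steps of replication. Among helicase and licensing genes Mcm4 (-1.24), Mcm6 (-1.12) and Cdt1 (-1.16) fell, while Mcm3 and Mcm7, not above background with FA, were not called and Cdc6 had a log2 fold change of 0.39. Of the polymerase genes, Pold1 (-1.25) and Pola2 (-0.67) fell, as did Pole and Pold2. Lig1 (-1.50) and Fen1 (-1.18), which join and trim lagging strand fragments, fell, as did the nucleotide synthesis genes Rrm1 (-1.02) and Tyms (-0.41). Dnmt1, the methyltransferase that Uhrf1 recruits, fell by 0.92 on the log2 scale. Pcna, the sliding clamp, had a log2 fold change of -0.00 and was not called.

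Of 23 mitosis genes measured 2 fell, against 7.35% of all genes, none rose and the median was -0.35. With an array left out 0 to 3 fell. Those called on all arrays were Ttk, a spindle checkpoint kinase, and Incenp, a subunit of the chromosomal passenger complex. Ttk, not above background with FA, was at least 1.25-fold lower and Incenp had a log2 fold change of -0.58, and each call was lost in 6 of 8 fits with an array left out. Top2a (-0.28), Cdk1 (-0.38) and Birc5 (-0.65) were not called.

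Promoter stretches of 3 genes that fell in the replication list are shown because E2F factors are known to drive these genes in S phase. They are from RefSeq (GRCm38.p6), on the strand of the gene, with E2F letters TTTCGCGC or TTTGGCGC in capitals: Mcm5 at chr8:75109319-75109398 (plus strand), Mcm6 at chr1:128359772-128359851 (minus strand) and, from 1 of several entries, Uhrf1 at chr17:56304092-56304171 (plus strand).
Mcm5: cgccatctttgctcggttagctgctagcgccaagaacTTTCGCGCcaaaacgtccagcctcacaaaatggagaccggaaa
Mcm6: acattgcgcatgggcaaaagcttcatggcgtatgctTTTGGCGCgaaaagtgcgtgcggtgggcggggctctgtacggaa
Uhrf1: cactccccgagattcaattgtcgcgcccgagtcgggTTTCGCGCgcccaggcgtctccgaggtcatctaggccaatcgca
Counted from the annotated start, the motif began at position -153 in Mcm5, -110 in Mcm6 and -185 in Uhrf1. Among measured replication genes with 1 promoter entry, 4 of 26 (15.4%) held either motif on either strand, namely Cdt1, Mcm3, Mcm5 and Mcm6, against 1.61% of 6030 tested genes. Of genes that fell, 11 of 408 (2.7%) held one, and of genes that rose 6 of 350 (1.71%). For the palindromic glucocorticoid response element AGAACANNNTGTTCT, searched in the same windows, the count was 0 of 22862 promoters. Its shorter core AGAACA on either strand was in 13.1% of genes that rose, 14.2% of those that fell and 13.1% of all tested genes. The absence of these letters says nothing about the receptor, whose sites often lie far from promoters.

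Several of the steepest falls stood outside these lists. Akr1c18, the enzyme that inactivates progesterone, was at 4.27 and 4.19 in REDD1 KO FA and 4.26 and 4.58 in wild-type FA arrays, against 6.61 and 8.63 in REDD1 KO vehicle and 8.03 and 6.94 in wild-type vehicle arrays. It was below background on every FA array and above it with vehicle, at least 7.41-fold lower with FA (log2 fold change -3.23, SE 0.379, adjusted p = 0.000744). Pyy, peptide YY, known as a gut hormone, was at 5.40 and 6.02 in REDD1 KO FA and 5.76 and 4.74 in wild-type FA arrays, against 7.89 and 7.74 in REDD1 KO vehicle and 8.19 and 10.001 in wild-type vehicle arrays, with wild-type vehicle replicate 2 the highest array (log2 fold change -2.97, SE 0.447, adjusted p = 0.00264). Ffar2, a receptor of short-chain fatty acids, was at 4.86 and 5.58 in REDD1 KO FA and 4.95 and 4.77 in wild-type FA arrays, against 7.81 and 7.80 in REDD1 KO vehicle and 7.58 and 7.40 in wild-type vehicle arrays. Its groups were widely separated and its genotypes nearly equal (log2 fold change -2.61, SE 0.156, adjusted p = 3.17e-05). Tmem45a2 had a log2 fold change of -2.34.

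Among 16 measured cytokine and chemokine genes 4 fell and none rose, with a median of 0.05. Il33, an alarm cytokine stored in epithelial nuclei, was at 6.87 and 6.54 in REDD1 KO FA and 5.86 and 6.19 in wild-type FA arrays, against 8.05 and 8.26 in REDD1 KO vehicle and 7.49 and 8.46 in wild-type vehicle arrays (log2 fold change -1.70, SE 0.213, adjusted p = 0.00102). The chemokines Cxcl12 (-1.60) and Cx3cl1 (-1.53) also fell with no overlap between the groups, and Cxcl9, an interferon-induced chemokine below background with FA, was at least 1.79-fold lower (adjusted p = 0.0409). Il1a (0.49), Il1b (0.20), Il18 (0.47) and Tgfb1 (-0.02) were not called. Among matrix genes 5 of 19 fell and 2 rose, against 7.35% and 5.78% of all genes. Where a wild-type FA array or REDD1 KO vehicle replicate 2 was left out, 3 fell. Mmp9, a gelatinase that Langerhans cells and keratinocytes secrete, was at 6.58 and 6.59 in REDD1 KO FA and 6.98 and 6.60 in wild-type FA arrays, against 8.94 and 8.83 in REDD1 KO vehicle and 8.22 and 8.61 in wild-type vehicle arrays (log2 fold change -1.96, SE 0.17, adjusted p = 0.000146), and Timp3, an inhibitor of such proteases, at 7.18 and 6.76 in REDD1 KO FA and 5.86 and 6.44 in wild-type FA arrays, against 8.62 and 8.39 in REDD1 KO vehicle and 8.33 and 8.27 in wild-type vehicle arrays (log2 fold change -1.84, SE 0.182, adjusted p = 0.000285). Both were lower on every FA array. Col7a1, the collagen of anchoring fibrils, and Col18a1 had log2 fold changes of -0.90 and -1.18 and fell, whereas Col4a1 (0.67) and Col4a2 (0.48), of the basement membrane, rose. The fibroblast collagens Col1a1 (-0.06) and Col3a1 (0.05) were not called.

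Some lipid and amino acid genes rose and others fell. Over all genes 5.78% rose and 7.35% fell. Of 20 sterol synthesis genes 6 fell and 1 rose, with a median of -0.26. Fdps, which makes farnesyl diphosphate, was at 11.03 and 10.61 in REDD1 KO FA and 10.73 and 10.68 in wild-type FA arrays, against 11.54 and 11.78 in REDD1 KO vehicle and 12.04 and 11.76 in wild-type vehicle arrays (log2 fold change -1.02, SE 0.145, adjusted p = 0.00193), and Mvd (-1.11), Sqle (-0.81) and Stard4 (-0.93), a cholesterol carrier, fell with it. Of 36 fatty acid genes 5 rose and 3 fell, with a median of 0.05, and the falls were near the share over all genes. These falls numbered 6 with median centring and 0 in each of 4 fits that left out a REDD1 KO FA array, REDD1 KO vehicle replicate 2 or wild-type FA replicate 1. Pnpla2, the first lipase of triglyceride breakdown, was at 10.55 and 10.76 in REDD1 KO FA and 10.17 and 10.41 in wild-type FA arrays, against 9.02 and 9.45 in REDD1 KO vehicle and 9.32 and 9.13 in wild-type vehicle arrays, with no overlap between FA and vehicle arrays (log2 fold change 1.24, SE 0.145, adjusted p = 0.000721). Elovl6 fell by 0.96 on the log2 scale, and Acsl3 rose by 1.02. Between the alkaline ceramidases the direction was opposite: Acer1 was at 10.78 and 10.64 in REDD1 KO FA and 10.90 and 10.99 in wild-type FA arrays, against 11.82 and 11.80 in REDD1 KO vehicle and 11.75 and 11.81 in wild-type vehicle arrays (log2 fold change -0.97, SE 0.113, adjusted p = 0.000717), and Acer2 was at 10.30 and 10.59 in REDD1 KO FA and 9.40 and 10.16 in wild-type FA arrays, against 8.92 and 9.41 in REDD1 KO vehicle and 8.93 and 7.73 in wild-type vehicle arrays (log2 fold change 1.37, SE 0.261, adjusted p = 0.0088). Acer1 was lower and Acer2 higher with FA in each genotype. Of 21 measured genes of the amino acid list 3 rose and 1 fell, with a median of 0.03. Slc7a5 (1.20) and Slc3a2 (0.93), both chains of a large neutral amino acid transporter, rose, and Psat1 of serine synthesis fell (log2 fold change -1.74, SE 0.154, adjusted p = 0.000156).

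Output genes of the circadian clock were divided as well. Of 14 measured, 3 rose and 2 fell, against 5.78% and 7.35% of all genes. Nfil3, a repressor of D-box genes, was at 8.48 and 9.13 in REDD1 KO FA and 8.19 and 8.53 in wild-type FA arrays, against 7.22 and 7.57 in REDD1 KO vehicle and 7.38 and 6.89 in wild-type vehicle arrays (log2 fold change 1.32, SE 0.182, adjusted p = 0.00166). Tef, an activator of the same elements, was at 9.74 and 9.97 in REDD1 KO FA and 8.81 and 8.90 in wild-type FA arrays, against 10.33 and 10.58 in REDD1 KO vehicle and 10.64 and 10.12 in wild-type vehicle arrays (log2 fold change -1.06, SE 0.202, adjusted p = 0.0086), and its relative Dbp fell by 1.03 on the log2 scale. FA arrays were above vehicle arrays for Nfil3 and below them for Tef in both genotypes. Nr1d1, the repressor REV-ERBα, rose by 1.08, and the sources used here give no time of day for the harvest.

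Of 53 cytosolic ribosomal protein genes, 50 had a negative log2 fold change, with a median of -0.24, and 4 were called lower, against 7.35% of all genes (Rpl12, Rpl30, Rpl31 and Rpl39). The count was 0 to 2 with an array left out and 15 without background correction, and another probe of Rpl31 was not called. Of 32 ribosome biogenesis genes 1 rose (Gnl3, 0.45, lost in 7 of 8 fits with an array left out). Of 14 basal keratinocyte genes 2 rose and 1 fell, against 5.78% and 7.35% of all genes, with a median of 0.04. Itga3 (0.59), an integrin subunit, and Dll1 (0.73), a Notch ligand, were higher and Egfr lower. Of 14 hair follicle genes, Krt17 (-0.72), Gata3 (-0.66) and Sox9 (-0.49) fell and Nfatc1 rose (0.51). A similarly bright probe of Nfatc1 rose too, a dimmer pair was not called, and the rise was not called with median centring.

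None of the 719 rises or 847 falls had opposite signs in REDD1 KO and wild type, but the model left no room for them. Opposite changes add so much to its spread that such a probe cannot pass the adjusted threshold. By the rule on non-overlap within each genotype, 694 rises (5.29% of tested probes) and 823 falls (6.27%) were shared, from 574 and 698 genes. The rises had a median of 0.70 in REDD1 KO and 0.71 in wild type, and the falls of -0.66 and -0.72 in the same order. In 76.8% of shared rises and 83.6% of shared falls the smaller change was at least 0.5 of the larger, on the log2 scale. The counts of shared and alike probes also follow in part from the choice of probes by their change over all arrays. The model contributes too, since in it a genotype difference adds to the spread. Of all tested probes, both FA arrays were above both vehicle arrays in 24.5% in REDD1 KO and 25% in wild type. They were below in 26.1% and 28.2%. The share of all tested probes that met the rule in both genotypes at once, or that were alike, is not given here.

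Within each genotype, FA was also tested with a spread estimated over all 8 arrays. FA raised 285 probes (2.17%) and lowered 307 (2.34%) in REDD1 KO, and raised 417 (3.18%) and lowered 416 (3.17%) in wild type. With 1 array left out these counts ranged from 92 to 311 and from 86 to 338 in REDD1 KO, both lowest without REDD1 KO vehicle replicate 2, and from 72 (without wild-type FA replicate 2) to 444 and from 70 (without wild-type FA replicate 1) to 459 in wild type. A fit on the 4 arrays of a genotype alone, added after the data were seen, takes no spread from the other genotype. It called 160 rises (1.22%) and 150 falls (1.14%) in REDD1 KO, and 377 rises (2.87%) and 330 falls (2.51%) in wild type (limma, Benjamini-Hochberg adjusted p under 0.05). Of the 160 rises in REDD1 KO, 147 (91.9%) had both wild-type FA arrays above both wild-type vehicle arrays, against 25% of all tested probes. Of the 150 falls, 137 (91.3%) had both wild-type FA arrays below, against 28.2%. Of the 377 rises in wild type, 256 (67.9%) were non-overlapping in the same direction in REDD1 KO, against 24.5% of tested probes, and of the 330 falls 288 (87.3%), against 26.1%. The median change of the rises was smaller in the genotype that did not select them, at 0.98 in wild type (1.41 in REDD1 KO) for those of REDD1 KO and 0.55 in REDD1 KO (1.15 in wild type) for those of wild type. The normalization and the filter on detection still used all 8 arrays. A probe called in 1 genotype only is not thereby shown to differ.

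With the spread taken over all 8 arrays, pooling the genotypes called many probes that neither genotype's own effect called: 317 of the 719 rises (44.1%) and 401 of the 847 falls (47.3%). Called in each of the genotypes were 130 rises and 156 falls. The 130 rises were 45.6% of those in REDD1 KO and 31.2% of those in wild type. Conversely 42 rises and 52 falls of REDD1 KO, and 128 rises and 69 falls of wild type, were not called over both.

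**Figure D4:**
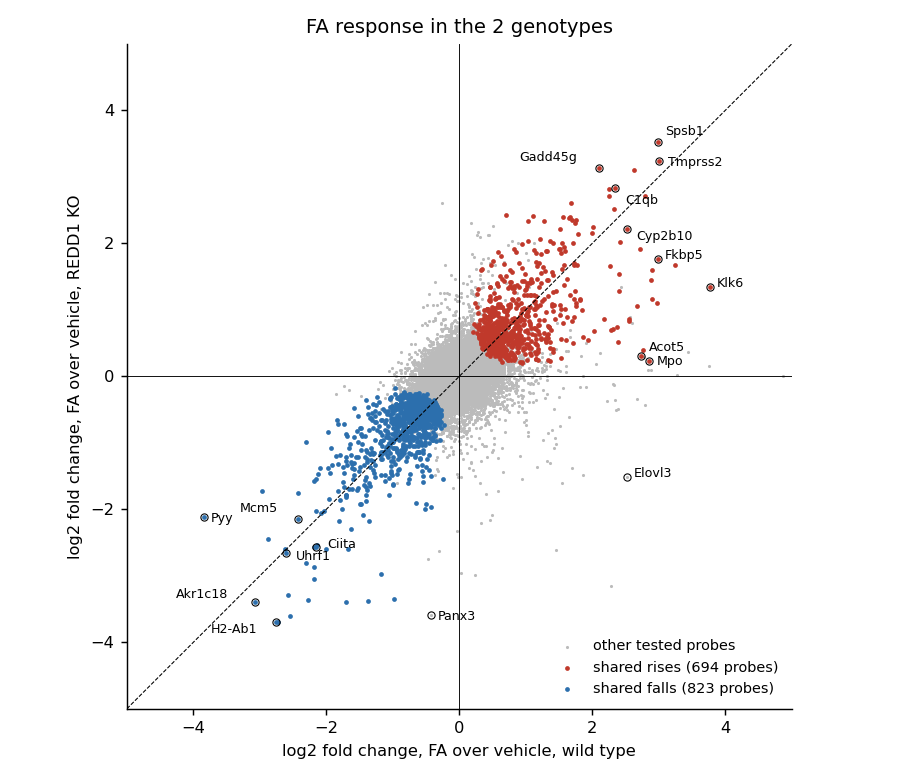
Log2 fold change of FA over vehicle in REDD1 KO (vertical axis) against wild type (horizontal axis) for 13131 probes, with shared rises in red, shared falls in blue, all others in grey and a dashed line of equality. Shared probes lie in the quadrants of equal sign by the rule that defines them. Uhrf1 and Tmprss2 were near the line, and Mpo, Acot5 and Panx3 close to an axis.

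Among probes with a change of at least 1 on the log2 scale, the genes most alike in the genotypes were led by Ramp3, a partner of calcitonin-like receptors. It was at 6.13 and 6.24 in REDD1 KO FA and 5.75 and 5.70 in wild-type FA arrays, against 5.01 and 5.11 in REDD1 KO vehicle and 4.71 and 4.50 in wild-type vehicle arrays (log2 fold change 1.12, SE 0.108, adjusted p = 0.000245). The change was 1.12 in REDD1 KO and 1.12 in wild type, and of its other probes the brighter also rose. Arc, an immediate early gene best known from neurons, was at 7.75 and 7.09 in REDD1 KO FA and 7.68 and 6.92 in wild-type FA arrays, against 5.67 and 5.77 in REDD1 KO vehicle and 5.60 and 5.55 in wild-type vehicle arrays (log2 fold change 1.71, SE 0.187, adjusted p = 0.000472), and its change was 1.70 in REDD1 KO and 1.73 in wild type. Agtr1a, an angiotensin II receptor not above background with vehicle, was at least 1.6-fold higher, at 5.30 ± 0.30 with FA and 4.26 ± 0.03 with vehicle (SD, n = 4 each). The remaining rises of this kind were Sprr2g (1.14) and Xylt2 (1.05), each lost in 5 of 8 fits with an array left out.

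Falls that were most alike were Efcab1, Hap1, Ripply3, H2ac15 and Acaa1b. Efcab1 was at 4.80 and 4.66 in REDD1 KO FA and 4.84 and 4.66 in wild-type FA arrays, against 5.88 and 5.85 in REDD1 KO vehicle and 5.50 and 6.27 in wild-type vehicle arrays, and its change was -1.14 in REDD1 KO and -1.14 in wild type (log2 fold change -1.14, SE 0.161, adjusted p = 0.0019). By the rule of selection its groups did not overlap within either genotype. Ripply3, a transcriptional corepressor (-1.17) and Hap1, huntingtin-associated protein (-1.04), fell, though a dimmer probe of Hap1 was not called. Acaa1b, a peroxisomal thiolase, had vehicle arrays from 5.35 to 8.06 and was lost in 5 of 8 fits with an array left out, so that its equal means carry a wide interval, 0.00 (95% interval -2.47 to 2.48) for REDD1 KO minus wild type. H2ac15, a histone H2A gene, was likewise lost in 5 of 8 of these fits, and its difference was 0.00 (95% interval -1.42 to 1.43).

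The test of whether the FA effect differed between genotypes called a difference at 4 probes (0.0305%), and at an unadjusted p under 0.05 at 1302 (9.92%). Among called rises 115 (16%) and among called falls 76 (8.97%) had an unadjusted p under 0.05 for the difference. Of the 802 rises and 916 falls called by the fit with 1 mean per group, which leaves it out of the spread, 23.9% and 13.9% had an unadjusted p under 0.05 for the difference, and 89.3% and 92.9% met the rule for shared probes. The median margin on either side of the 95% interval of a difference was 0.61 on the log2 scale, wider than the median difference of 0.30 among rises and 0.22 among falls. Differences of that size were not detectable with these arrays. For the class II genes the differences were -0.94 (95% interval -1.94 to 0.07) in H2-Ab1 and -0.42 (95% interval -0.99 to 0.16) in Ciita, and for Uhrf1 -0.05 (95% interval -1.32 to 1.22). Each of these intervals included 0. Dimmer probes of H2-Ab1 had differences of -0.97 (95% interval -1.91 to -0.03), -1.07 (95% interval -2.05 to -0.08) and -1.09 (95% interval -2.20 to 0.01). None of them passed the adjusted threshold, though not every interval included 0. For Spsb1 the difference was 0.53 (95% interval -0.01 to 1.07) and for Scgb2b27 -0.80 (95% interval -1.35 to -0.26). The interval of Scgb2b27 excluded 0 without passing the adjusted threshold.

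Some calls over both genotypes rested on 1 of them. The largest differences among called genes were in Panx3, Mpo, Acot5, Klk6 and Lcn2, and they were chosen for that size. Mpo, myeloperoxidase of neutrophils, was at 4.80 and 4.71 in REDD1 KO FA and 7.24 and 7.64 in wild-type FA arrays, against 4.36 and 4.69 in REDD1 KO vehicle and 4.63 and 4.53 in wild-type vehicle arrays. Only wild-type FA arrays stood clear of the rest, a further pair of Mpo probes near background was not called, and the difference was -2.63 (95% interval -3.23 to -2.03), adjusted p = 0.0162. Acot5, which splits acyl-CoA in peroxisomes, was at 4.69 and 4.89 in REDD1 KO FA and 7.30 and 7.17 in wild-type FA arrays, against 4.36 and 4.61 in REDD1 KO vehicle and 4.49 and 4.51 in wild-type vehicle arrays, with the same pattern (difference -2.43 (95% interval -2.95 to -1.91), adjusted p = 0.0139). Lcn2, lipocalin 2, an iron-binding protein of innate defence, changed by 0.40 in REDD1 KO and 2.77 in wild type. Panx3, a channel protein of differentiating cells, was at 4.91 and 6.06 in REDD1 KO FA and 8.53 and 8.90 in wild-type FA arrays, against 8.54 and 9.62 in REDD1 KO vehicle and 9.44 and 8.84 in wild-type vehicle arrays. It was low on REDD1 KO FA arrays alone and was not shared. Mpo, Acot5, Lcn2 and Klk6 did meet the rule for shared probes. Their smaller change was 0.0793, 0.111, 0.146 and 0.359 of the larger, so the shared rises include genes that changed mainly in wild type. The main-effect calls of Mpo, Acot5, Lcn2 and Panx3 were lost in 5, 4, 6 and 6 of 8 fits with an array left out. In REDD1 KO, Klk6, a kallikrein protease, was at 8.06 and 7.89 with FA and 5.71 and 7.53 with vehicle. Its change there was 1.35 and was not called (limma, adjusted p = 0.249), against 3.77 in wild type. Over both genotypes its log2 fold change was 2.56 (SE 0.547, adjusted p = 0.0145). The difference was -2.42 (95% interval -4.30 to -0.53) and did not pass the adjusted threshold (adjusted p = 0.411).

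**Figure D5:**
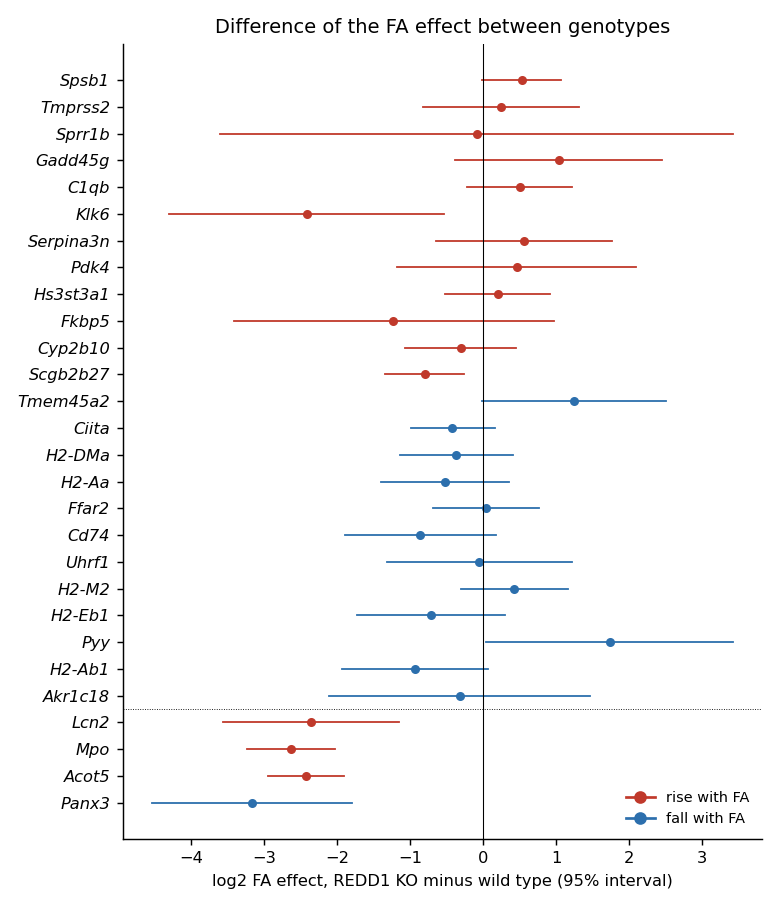
Difference of the log2 FA effect, REDD1 KO minus wild type, with its 95% interval, for the 12 largest shared rises and 12 largest shared falls (above the dotted line) and for further called genes chosen for a large difference (below it). Most intervals above the line include 0, and those of Lcn2, Mpo, Acot5 and Panx3 lie below it.

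Genes with opposite changes in the genotypes fell outside the shared response. Elovl3, a fatty acid elongase of sebaceous glands, was at 4.46 and 5.16 in REDD1 KO FA and 8.78 and 9.49 in wild-type FA arrays, against 5.62 and 7.01 in REDD1 KO vehicle and 6.86 and 6.38 in wild-type vehicle arrays. It was higher with FA in wild type and lower in REDD1 KO, which left a main effect of 0.51 (adjusted p = 0.698). Rptn, repetin of the granular layer, Socs2, a cytokine signal inhibitor, and Hilpda, a lipid droplet protein, were likewise not called, at 1.16, 1.18 and 0.95. Over 16 sebaceous gland genes the median was -0.93 in REDD1 KO and 0.67 in wild type, and 1 (Acot5) was called. Of the other lists, 12 skeletal muscle genes had a median of 1.16 with none called, which was -0.14 without REDD1 KO FA replicate 1.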

How the data were processed

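Epidermal RNA was hybridized to 8 Illumina MouseRef-8 v2.0 arrays, 2 per group, with groups and replicate numbers as labelled. For 25697 probes and 832 control lines the authors deposited bead intensities, without background subtraction or normalization. They also deposited a detection p-value per probe and array. The log2 values, deposited as 1 table of the series, were made by the authors with the neqc method of limma, which uses control probes for background correction and quantile normalization with an offset of 16. Applying neqc to the intensities, with 798 negative controls inferred from how those p-values step, gave the same values within 4.99e-09.

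The log2 values were fitted with limma 3.58.1 (R 4.3.3) on all 8 arrays, with treatment and genotype as terms and moderated variances (empirical Bayes, residual df 5, prior df 5.22). The effect in each genotype and the difference between genotypes came from a fit with 1 mean per group, which shares the spread of all 8 arrays. A fit on each genotype's own 4 arrays was added after the data were seen. P-values were two-sided and Benjamini-Hochberg adjusted across every probe tested. Probes with a detection p-value under 0.05 on at least 2 arrays were tested, and arrays on which a probe failed this count as below background for it. The scripts were tested on simulated data. Of all probes, 23978 had 1 symbol and 1719 none in the platform annotation. Symbols were updated by gene number for 23962, by accession for 9 and kept for 7. A listed gene stood for its probe with the highest mean signal. Promoters were those of tested genes with a single RefSeq entry, 6030 of 9343.

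Named genes were the 12 largest shared rises and falls, the 5 most alike of each at a change of at least 1, the 5 called genes with the largest genotype difference, the 3 called genes of each list with the largest change, and 11 genes that the study measured by PCR or discusses. Further members of the 35 lists are given as log2 fold changes. Members, lists and tests were chosen with earlier results of these data known. Alternatives were other background, offset, scaling, filter, model and threshold settings, and leaving out each array. Python 3.11.15 and matplotlib 3.10.9 made the plots.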

Additional observations from a re-analysis of the deposited data

Results flagged for a closer look

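The FA effect on 2 named genes that were called over both genotypes differed between the genotypes by the test of the difference itself. For Mpo the REDD1 KO minus wild type difference was -2.63 on the log2 scale (limma, adjusted p = 0.0162), with a change of 0.23 in REDD1 KO and 2.86 in wild type. For Acot5 it was -2.43 (adjusted p = 0.0139), with a change of 0.30 in REDD1 KO and 2.74 in wild type.

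Among 113 named probes, with the 4 FA arrays and the 4 vehicle arrays looked at separately, 9 of 226 sets had 1 array far from the other 3 for the spread of the set. Chance alone marks about 1 in 20 sets. REDD1 KO FA replicate 2 was high in Trp53inp1 (11.21, other FA arrays 10.83 to 10.88). REDD1 KO FA replicate 1 was low in Igf1r (5.16, others 5.76 to 5.87) and in Cd207 (7.23, others 7.97 to 8.08). Wild-type FA replicate 1 was high in Mmp9 (6.98, others 6.58 to 6.60). Among vehicle arrays, REDD1 KO replicate 2 was high in Rptn (7.28, others 5.84 to 5.89) and wild-type replicate 2 in Itga3 (8.35, others 7.77 to 7.87). Wild-type vehicle replicate 1 was high in Nfkbia (9.55, others 9.03 to 9.08) and Cd3g (8.71, others 7.54 to 7.65) and low in Cd83 (5.04, others 5.67 to 5.79).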

How the results depend on the processing

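With an array left out, 374 to 609 probes were higher and 426 to 681 lower, 374 to 608 rises and 426 to 681 falls were shared, and the genotype difference was called at 0 to 31 probes. The lowest counts of rises and falls came without wild-type FA replicate 1, which leaves 3 FA arrays. Without a genotype term 428 probes were higher and 538 lower, with 426 and 537 shared. At an adjusted p under 0.01 the counts were 264 and 312, all of them shared, and at a log2 change of at least 1 they were 186 and 197, with 179 and 194 shared. Median centring gave 402 higher, 374 of them shared, and 1127 lower. The genotype difference, at 4 probes, was called at 0 without background correction, without a filter on dim probes or with detection on all 8 arrays, at 2 with detection on 4, at 1 with an offset of 50 or an adjusted p under 0.01, and at 8 with trend and robust moderation. The main effect of Elovl3, 0.51 and not called, ranged from -0.04 (without wild-type FA replicate 2) to 1.19 with an array left out. The other settings gave counts over both genotypes within 1.5 times those reported. Within each genotype, 285 rises and 307 falls in REDD1 KO and 417 and 416 in wild type became 169, 404, 234 and 342 with median centring, 194, 169, 269 and 308 without a filter on dim probes, and 160, 150, 377 and 330 on the genotype's own 4 arrays. The causes of these shifts were not tested.

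Nothing in the labels says that replicate numbers pair the samples. Deviations of equally numbered arrays correlated at r = -0.107 to 0.252, above 0.1 for 3 of 6 pairs of groups, so the numbers were not used as pairs. With the replicate block 652 probes were higher and 772 lower, 624 and 750 of them shared, and the difference was called at 4. Of the named probes 9 lost the call, those of Lce3b, Lcn2, Mpo, Xylt2, Junb, Egfr, Rpl31, Oasl2 and Panx3. Of 107 named probes that were called, 74 kept the call with each array left out, 70 under each of 13 other settings and 69 under all of these, and no called probe changed sign. Signal over background limits the rest, and a called gene named as not above background in a group has only a bound.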

Other observations

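Among genes of the replication-dependent histone clusters, most measured H2A genes fell and most measured H4 genes rose. The histone genes were looked at after their values were seen, and many are near-identical copies, so that a probe may also bind transcripts of its neighbours. Of 10 measured H2A genes (H2ac) 8 fell and H2ac18 rose, with a median log2 fold change of -1.19. The call of H2ac15, among those that fell, was lost in 5 of 8 fits with an array left out. H2ac22 was at 7.91 and 7.88 in REDD1 KO FA and 7.21 and 7.22 in wild-type FA arrays, against 8.58 and 9.99 in REDD1 KO vehicle and 8.87 and 9.76 in wild-type vehicle arrays (log2 fold change -1.74, SE 0.3, adjusted p = 0.00548, limma). The FA arrays were below the vehicle arrays in each genotype. Of 7 H4 genes (H4c) 5 rose and none fell, with a median of 0.74. H4c11 was at 6.44 and 5.58 in REDD1 KO FA and 6.25 and 5.99 in wild-type FA arrays, against 4.92 and 4.96 in REDD1 KO vehicle and 4.70 and 4.68 in wild-type vehicle arrays (log2 fold change 1.25, SE 0.183, adjusted p = 0.00225), with no overlap between the groups. Of 8 H2B genes (H2bc) 2 rose, with a median of 0.72, and 1 of 8 H3 and 1 of 3 H1 genes rose, against 5.78% of all genes. The H2B rises were H2bc11 (0.55 in REDD1 KO and 1.23 in wild type), which was not shared, and H2bc12 (0.69 and 1.18). H2bc7, not called, changed by 0.15 in REDD1 KO and 1.30 in wild type. None of these genotype differences passed the adjusted threshold. The H1 genes were taken by symbol and include H1f10, which was not called. It lies on chromosome 6, outside the clusters on chromosomes 13 and 3. The variant H2az1, expressed outside S phase too, fell by 0.73 on the log2 scale.

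A single gene, Fuom, a fucose mutarotase, had probes called in both directions. One probe had a log2 fold change of 0.83 (adjusted p = 0.00407) and the other of -0.69 (adjusted p = 0.0197), each with no overlap between FA and vehicle arrays within either genotype. The annotation used here does not say which transcripts each probe reads.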
